A study of Mus musculus with 12 samples.

Results

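Histone H3 lysine 9 (H3K9) and histone H4 lysine 20 (H4K20) are methylated by a small set of enzymes, and 9 of their genes were examined here among the 12591 genes of the table: Suv39h1, Suv39h2, Ehmt1, Ehmt2, Setdb1, Setdb2, Kmt5a (also called Setd8), Kmt5b and Kmt5c. They were chosen by gene name for their known substrate, with earlier results of these data known, and all 9 were listed. RNA came from PER2::LUC mouse embryonic fibroblasts (MEFs) of C57 strain, an immortalized line from heterozygous knock-in mice whose clock protein PER2 carries luciferase. At confluence, the cells were kept for 24 h in 1 mM SAM (S-adenosylmethionine, the methyl donor of the cell), with 1 mM adenine (a product of the breakdown of SAM) or with 10 μM DZ (deazaneplanocin A, an inhibitor of the enzyme AHCY). Control cells (CTL) received none of these, and medium of all 4 groups, CTL included, contained 3.3 mM HCl. Each group had 3 dishes of these cells, so p-values measured the spread between dishes, which may be technical, and no second line of cells was examined.

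Every histone methyltransferase takes its methyl group from SAM and releases S-adenosylhomocysteine, which AHCY clears and which inhibits these enzymes when it accumulates. Methylated H3K9 is a mark of silent chromatin: SUV39H1 and SUV39H2 trimethylate it at the repeats next to centromeres, EHMT1 and EHMT2 act as a pair in euchromatin, and SETDB1 trimethylates it at retroelements. On H4K20, KMT5A places the first methyl group, on which KMT5B and KMT5C build the di- and trimethylated states found in replication control, DNA repair and heterochromatin. The data are levels of mRNA, which do not measure the enzymes' activity or the marks.

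The values are log2 CPM, the logarithm of a gene's reads scaled to a common library size. The reads on listed genes, recovered from these values, were between 45649534 and 56789090 per library, and the members had between 324 reads (Suv39h2 in a CTL library) and 19546 reads (Ehmt2 in a SAM library). Each gene was tested with limma in 1 model of the 12 libraries, and was called at a Benjamini-Hochberg FDR under 0.01 over all genes. Fold changes rest on the authors' scaling of the libraries. With plain read totals instead, the median log2 fold change over all genes was 0.11 in place of -0.015 for SAM, and it moved by 0.062 or less on the log2 scale for the other treatments. Of 12 fibroblast markers, 10 were listed, with a summed level of 23873 to 24358 CPM in CTL, 30447 to 31073 in DZ, 27733 to 30180 in adenine and 19785 to 21139 in SAM, whereas Lum and Dcn, also fibroblast markers, were not among the genes listed. The sum and the single genes differed in direction under SAM, where 9 of the 10 rose (median log2 fold change 0.43) and Fn1, the fibronectin gene, fell by 1.58 on the log2 scale. Of all genes, 33.7% were called higher under SAM and 35.7% lower. No listed gene was among the 6 epithelial or 5 endothelial markers, and of 8 leukocyte markers Cd68, which fibroblasts can also express, was listed, at 3.03 to 4 CPM in CTL and 15.57 to 17.67 CPM in SAM.

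In 8 of the 9 genes the log2 fold change was largest in size under SAM, whereas that of Setdb2 was largest under DZ. SAM changed 8 of the 9 genes (6 higher and 2 lower than in CTL), where 69.3% of all genes were called (33.7% higher and 35.7% lower). Adenine changed 6 (4 higher and 2 lower), where 61.6% of all genes were called (30.6% higher and 31.0% lower). DZ changed 5 (3 higher and 2 lower), where 45.9% of all genes were called (22.6% higher and 23.4% lower). The shares of the members were 88.9%, 66.7% and 55.6%. The treated and CTL dishes did not overlap for 8 of the 9 genes under SAM, where this held for 77.6% of all genes, for 7 under adenine, where it held for 74.7%, and for 7 under DZ, where it held for 65.4%. The median log2 fold change of the 9 genes was 0.27 for SAM, 0.2 for adenine and 0.062 for DZ, against -0.015, -0.003 and -0.0057 over all genes. The 3 comparisons share the same CTL libraries.

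**Figure D1:**
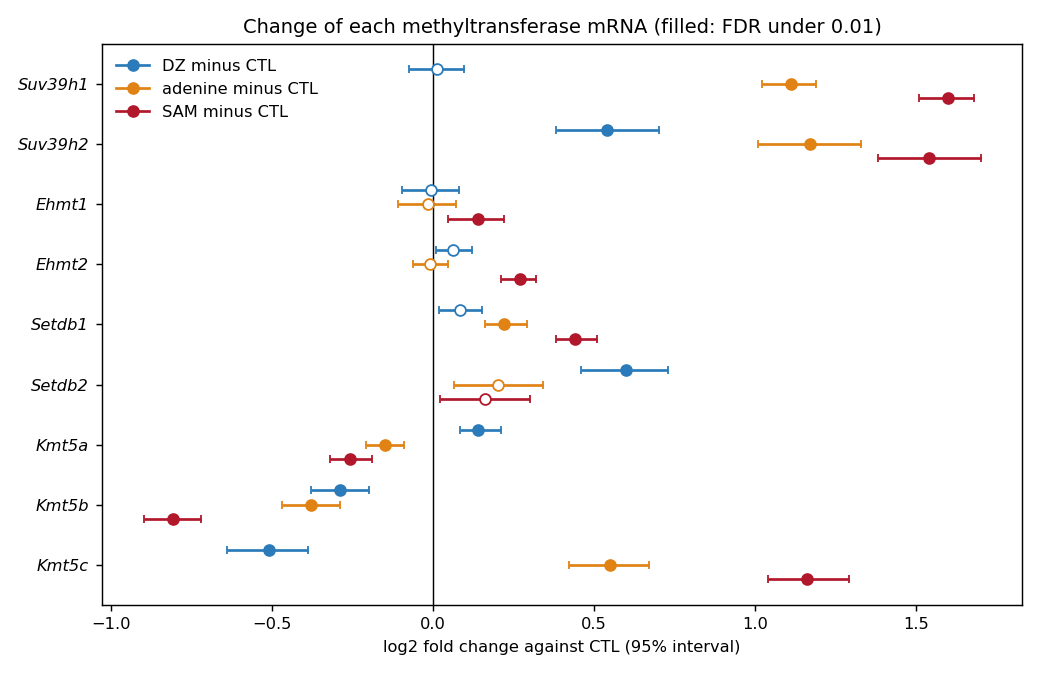
Log2 fold change of each of the 9 methyltransferase mRNAs against CTL (x axis), with its 95% interval from limma, for DZ, adenine and SAM, where filled points are genes called at an FDR under 0.01. Suv39h1 and Suv39h2 lie beyond 1 under both adenine and SAM, Kmt5c lies at -0.51 under DZ and 1.16 under SAM, and Kmt5b lies below 0 under all 3 treatments.

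The 4 genes with the widest changes (Suv39h1, Suv39h2, Kmt5b and Kmt5c) are shown with the DNA at their start, since the first pair moved alike under SAM and the second pair moved apart. Each line holds 250 bases before and 50 bases after the start of the canonical transcript in GENCODE vM39, 5′ to 3′ on the strand of the gene, read from GRCm39. The windows are chrX:7940950-7941249 (minus strand) for Suv39h1, chr2:3476036-3476335 (minus) for Suv39h2, chr19:3817556-3817855 (plus) for Kmt5b and chr7:4742835-4743134 (plus) for Kmt5c. Capitals mark matches on either strand to the E2F-type words TTTCCCGC, TTTCGCGC, TTTGCCGC and TTTGGCGC, to the CCAAT box and to the GC box GGGCGG.
Suv39h1: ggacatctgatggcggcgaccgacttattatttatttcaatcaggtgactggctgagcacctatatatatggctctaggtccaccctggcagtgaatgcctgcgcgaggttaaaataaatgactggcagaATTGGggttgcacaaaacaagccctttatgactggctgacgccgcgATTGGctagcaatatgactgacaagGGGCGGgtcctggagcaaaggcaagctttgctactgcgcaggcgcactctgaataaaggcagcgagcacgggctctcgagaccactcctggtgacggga
Suv39h2: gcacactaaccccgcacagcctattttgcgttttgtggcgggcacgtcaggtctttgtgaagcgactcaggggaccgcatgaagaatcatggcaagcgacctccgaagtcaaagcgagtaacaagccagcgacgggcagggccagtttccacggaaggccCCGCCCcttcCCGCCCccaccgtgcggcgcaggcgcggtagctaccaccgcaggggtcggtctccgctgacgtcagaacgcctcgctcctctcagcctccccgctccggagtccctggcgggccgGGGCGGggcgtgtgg
Kmt5b: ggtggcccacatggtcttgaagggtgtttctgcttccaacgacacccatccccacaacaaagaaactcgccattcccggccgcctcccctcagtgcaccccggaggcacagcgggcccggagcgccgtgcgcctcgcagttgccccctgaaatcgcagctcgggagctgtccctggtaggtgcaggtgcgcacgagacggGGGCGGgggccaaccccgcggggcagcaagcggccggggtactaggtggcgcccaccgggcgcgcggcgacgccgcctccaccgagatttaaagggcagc
Kmt5c: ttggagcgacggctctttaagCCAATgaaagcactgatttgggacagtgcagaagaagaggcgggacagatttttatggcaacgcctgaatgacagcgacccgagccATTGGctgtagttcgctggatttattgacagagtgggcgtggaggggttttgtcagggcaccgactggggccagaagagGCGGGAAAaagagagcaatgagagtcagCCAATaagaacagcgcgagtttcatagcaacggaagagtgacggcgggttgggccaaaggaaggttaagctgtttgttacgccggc

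The Kmt5c window held an E2F-type word, GCGGGAAA, which starts at -64 from the transcript start, and it was the only one of the 9 members' windows to do so, while 3.74% of the 12555 windows of the table's genes held one. It also held 3 CCAAT boxes, at -229, -143 and -36. The Suv39h1 window held CCAAT boxes at -120 and -74 and a GC box at -49, the Suv39h2 window held GC boxes at -90, -80 and 36, and the Kmt5b window held a GC box at -50. A CCAAT box was found in 5 of the 9 members' windows and in 39.6% of all windows, and a GC box in 8 of 9 and in 55.7%. The CHR words TTTGAA and TTCGAA were in the windows of Ehmt1 and Ehmt2 and in 16.6% of all windows, and the E-box CACGTG was in that of Ehmt2 and in 9.64% of all windows. GC content was 53.0% for Suv39h1, 53.3% for Kmt5c, 67.0% for Suv39h2 and 69.7% for Kmt5b. Such matches describe the letters of these windows and were not tested for binding.

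**Figure D2:**
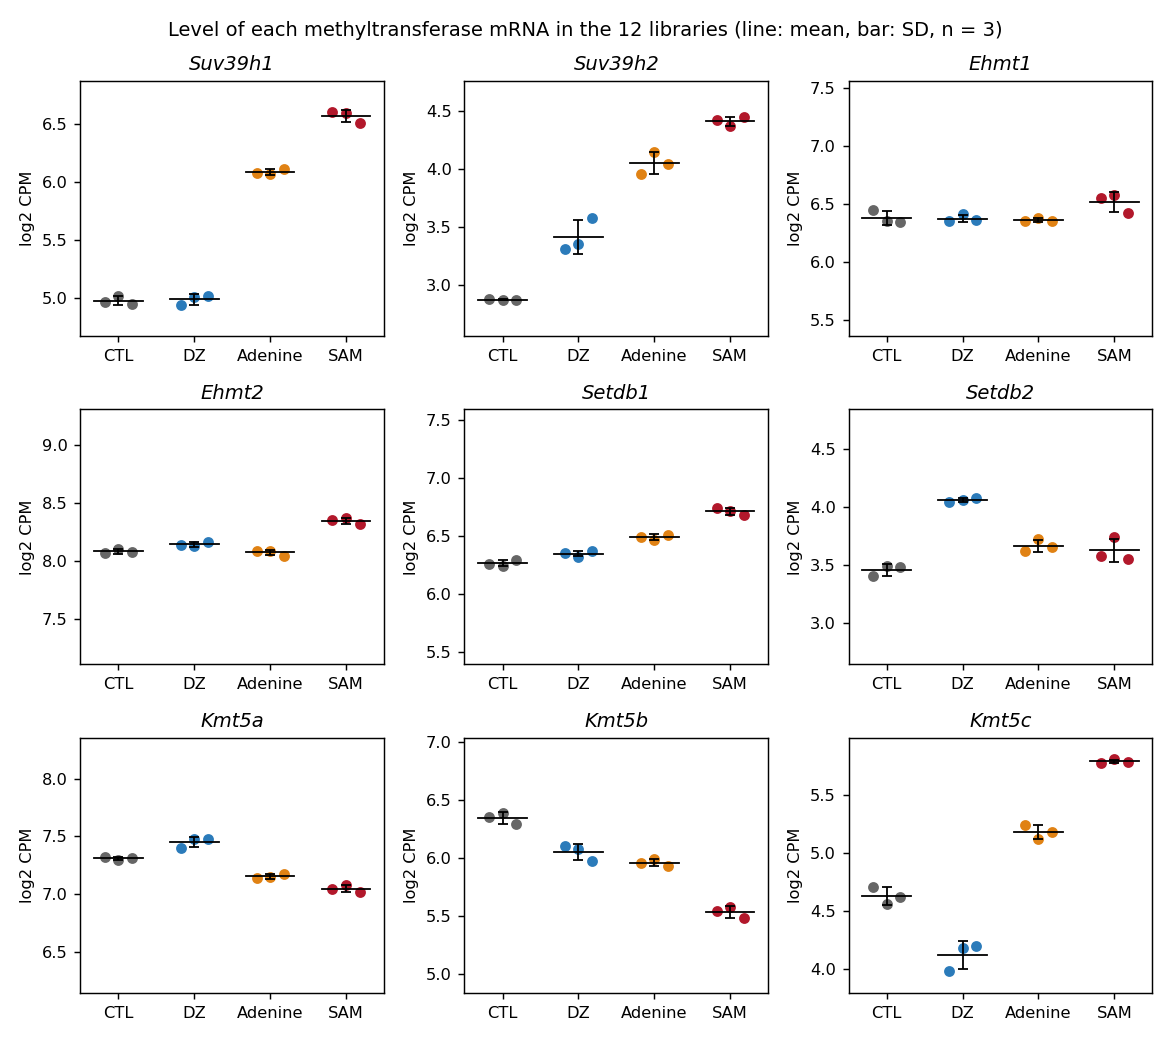
Level of each methyltransferase mRNA in log2 CPM (y axis) in the 12 libraries, where points are dishes, lines are group means and bars are SD (n = 3), and every panel spans the same number of log2 units. The dishes of Suv39h1 lie at 4.95 to 5.02 in CTL and 6.51 to 6.61 in SAM, whereas those of Kmt5b lie at 6.29 to 6.39 in CTL and 5.48 to 5.58 in SAM.

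In control cells, levels were compared per kilobase of the canonical transcript in GENCODE vM39. Which transcripts of a gene the cells used was not examined, and the SD does not cover this. Ehmt2 was the most abundant, at 66.8 ± 0.829 CPM per kilobase (SD, n = 3), followed by Kmt5a at 57.1 ± 0.275. Both stood well above Setdb1 (16.6 ± 0.337 CPM per kilobase), Ehmt1 (13.9 ± 0.547), Kmt5b (13.5 ± 0.456), Kmt5c (10.9 ± 0.582) and Suv39h1 (10.1 ± 0.281). Setdb2, at 2.22 ± 0.0753 CPM per kilobase, and Suv39h2, at 1.35 ± 0.00526, were the scarcest. The dish ranges of Ehmt1 and Kmt5b overlapped, as did those of Kmt5c and Suv39h1, and all other neighbours in this order were separate. After SAM the order differed: Suv39h1 was at 30.5 ± 1.21 CPM per kilobase and Kmt5c at 24.4 ± 0.246, next below Ehmt2 and Kmt5a, whereas Kmt5b was at 7.71 ± 0.266.

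Suv39h1 (chromosome X, 7927403 to 7940999, minus strand) had 4.97, 5.02 and 4.95 log2 CPM in the CTL dishes and 6.61, 6.60 and 6.51 in the SAM dishes. Its adenine dishes stood at 6.08, 6.07 and 6.12 log2 CPM and its DZ dishes at 4.94, 5.01 and 5.02. All SAM dishes lay above all adenine dishes, these lay above all CTL dishes, and the DZ dishes overlapped with CTL. The gene rose 3.02-fold under SAM (log2 fold change 1.6, standard error 0.04, adjusted p = 1.64e-14, limma) and 2.16-fold under adenine (log2 fold change 1.11, adjusted p = 1.76e-12, limma). In 3.28% and 4.94% of all genes, respectively, the log2 fold change was higher. Under DZ its log2 fold change was 0.011 (95% interval -0.075 to 0.096, adjusted p = 0.838, limma).

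Suv39h2 (chromosome 2, 3455774 to 3476146, minus strand), the other enzyme of the SUV39H pair, had 2.88, 2.87 and 2.87 log2 CPM in CTL and 4.42, 4.37 and 4.45 in SAM. It stood at 3.96, 4.15 and 4.04 log2 CPM in adenine and at 3.31, 3.35 and 3.58 in DZ. The 4 groups did not overlap, in the order CTL, DZ, adenine and SAM. It rose 2.90-fold under SAM (log2 fold change 1.54, standard error 0.075, adjusted p = 3.29e-11, limma), 2.26-fold under adenine (log2 fold change 1.17, adjusted p = 1.24e-09, limma) and 1.45-fold under DZ (log2 fold change 0.54, adjusted p = 2.19e-05, limma). Suv39h2 overlaps Dclre1c on the opposite strand, a DNA repair gene whose log2 fold changes were -0.29 under SAM, -0.11 under adenine and -0.27 under DZ. The library kit keeps the strand, but the strand setting of the counting was not given in the sources used here, so reads of overlapping genes may be shared.

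Within a library, Suv39h1 stood at 7.46 ± 0.223 times the level of Suv39h2 per kilobase in CTL (SD, n = 3), 7.78 ± 0.481 times in SAM and 7.14 ± 0.518 times in adenine. In DZ dishes the ratio was 5.19 ± 0.411, with 5.37, 5.49 and 4.72 in the single dishes against 7.36, 7.72 and 7.30 in CTL, which did not overlap. An exact two-sided permutation test gave p = 0.1 for DZ, 0.4 for SAM and 0.5 for adenine, where 0.1 is the smallest p that 3 dishes against 3 allow. Among the 12 such tests of 4 gene pairs, the Benjamini-Hochberg adjusted p of DZ was 0.2 and those of SAM and adenine were 0.533 and 0.545 in these exact permutation tests. The summed level of both genes was 11.5 ± 0.278 CPM per kilobase in CTL, 12.1 ± 0.476 in DZ, 24.8 ± 0.392 in adenine and 34.5 ± 1.13 in SAM.

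Ehmt2 (chromosome 17, 35117256 to 35133048, plus strand), which encodes the H3K9 mono- and dimethylase G9a, moved less. Its dishes stood at 8.07, 8.11 and 8.08 log2 CPM in CTL and at 8.36, 8.37 and 8.32 in SAM, without overlap. It rose 1.20-fold under SAM (log2 fold change 0.27, standard error 0.025, adjusted p = 1.17e-07, limma). It was not called under adenine (8.09, 8.09 and 8.05 log2 CPM; log2 fold change -0.0092, 95% interval -0.063 to 0.045) or DZ (8.14, 8.13 and 8.17 log2 CPM; log2 fold change 0.062, 95% interval 0.0078 to 0.12), where all 3 DZ dishes lay above all CTL dishes.

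Ehmt1 (chromosome 2, 24679940 to 24809696, minus strand), which encodes the partner GLP, had 6.45, 6.35 and 6.34 log2 CPM in CTL and 6.55, 6.58 and 6.42 in SAM, and the lowest SAM dish lay below the highest CTL dish. It was called under SAM at 1.1-fold (log2 fold change 0.14, standard error 0.042, adjusted p = 0.00787, limma). This call was lost without CTL replicate 2 or 3 or SAM replicate 1 or 2 (log2 fold changes of 0.12, 0.12, 0.12 and 0.10, adjusted p of 0.0313, 0.037, 0.033 and 0.0464, limma). It was also lost with median centring, without a variance trend and with a separate model per comparison (adjusted p of 0.0425, 0.0186 and 0.0277, limma). In adenine (6.35, 6.38 and 6.35 log2 CPM) and DZ (6.35, 6.41 and 6.36) its dishes overlapped with CTL, with log2 fold changes of -0.017 (95% interval -0.11 to 0.071) and -0.008 (95% interval -0.097 to 0.081). The ratio of Ehmt2 to Ehmt1 per kilobase was 4.81 ± 0.219 in CTL and 5.27 ± 0.221 in SAM (SD, n = 3, exact permutation p = 0.1, adjusted p = 0.2), 5.05 ± 0.164 in DZ and 4.83 ± 0.0772 in adenine.

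Setdb1 (chromosome 3, 95229399 to 95264541, minus strand) had 6.26, 6.24 and 6.29 log2 CPM in CTL, 6.35, 6.32 and 6.37 in DZ, 6.49, 6.46 and 6.51 in adenine and 6.74, 6.71 and 6.68 in SAM. The 4 groups did not overlap. It rose 1.36-fold under SAM (log2 fold change 0.44, standard error 0.03, adjusted p = 2.11e-09, limma) and 1.17-fold under adenine (log2 fold change 0.22, adjusted p = 8.11e-06, limma). Under DZ it was not called (log2 fold change 0.082, adjusted p = 0.0314, limma). A stretch of 542 bases, 11.7% of its canonical transcript, matched the pseudogene locus Gm4349 on chromosome 3 at 99.8% identity, so its reads are uncertain to that extent. Setdb1 overlaps Cers2, a ceramide synthase gene on the opposite strand with log2 fold changes of -0.77 under SAM and -0.68 under adenine.

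Setdb2 (chromosome 14, 59637727 to 59678557, minus strand), a relative of SETDB1, was the H3K9 member with the largest log2 fold change under DZ. Its dishes were at 3.40, 3.49 and 3.48 log2 CPM in CTL and at 4.04, 4.06 and 4.08 in DZ. Adenine dishes stood at 3.62, 3.72 and 3.65 log2 CPM and SAM dishes at 3.58, 3.74 and 3.55, so that all treated dishes lay above all CTL dishes and the DZ dishes lay above all others. It rose 1.51-fold under DZ (log2 fold change 0.6, standard error 0.064, adjusted p = 1.62e-06, limma), and 3.5% of all genes had a higher log2 fold change. It was not called under adenine (log2 fold change 0.2, adjusted p = 0.0113, limma) or SAM (log2 fold change 0.16, adjusted p = 0.0347, limma), although with plain read totals, which raise the median of all genes, it was called under both (0.26 and 0.28). Cab39l, which overlaps it on the opposite strand, had a log2 fold change of -0.077 under DZ.

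The ratio of Setdb1 to Setdb2 per kilobase was 7.48 ± 0.301 in CTL, 5.24 ± 0.0805 in DZ, 7.60 ± 0.354 in adenine and 9.12 ± 0.634 in SAM (SD, n = 3). The dishes of DZ (5.31, 5.15 and 5.25) lay below those of CTL (7.77, 7.17 and 7.52), and the dishes of SAM (9.58, 8.40 and 9.38) lay above them. Exact two-sided permutation tests gave p = 0.1 for both and 0.5 for adenine (adjusted over the 12 tests, 0.2 and 0.545).

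**Figure D3:**
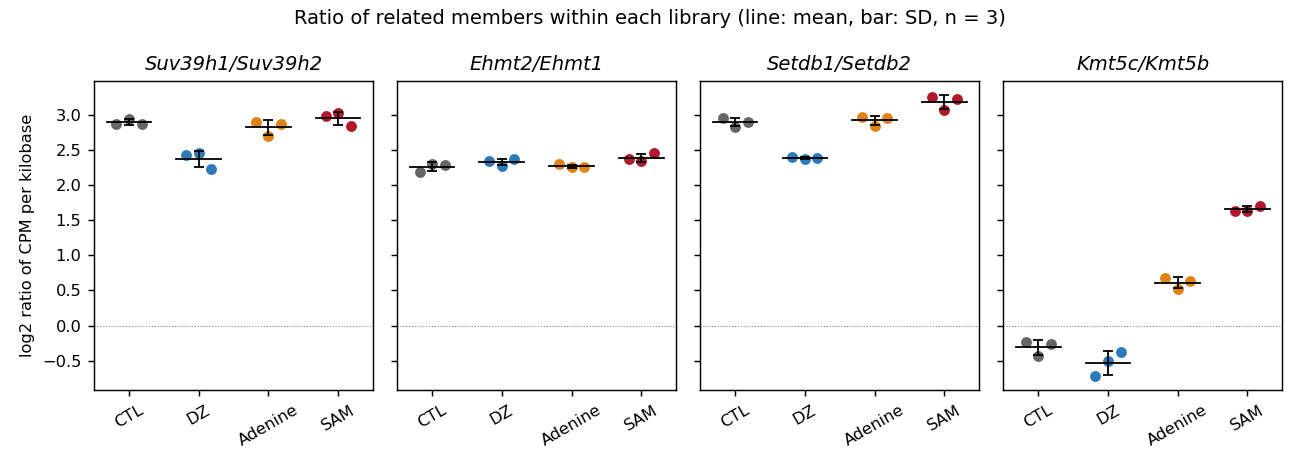
Ratio of the levels per kilobase of related members within each library, on a log2 scale (y axis), in CTL, DZ, adenine and SAM, where points are dishes, lines are group means and bars are SD (n = 3). Kmt5c/Kmt5b moves from -0.31 in CTL to 0.61 in adenine and 1.66 in SAM, whereas Suv39h1/Suv39h2 lies at 2.9 in CTL, 2.83 in adenine, 2.96 in SAM and 2.37 in DZ.

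The H4K20 enzymes divided differently. Kmt5a (chromosome 5, 124577955 to 124600374, plus strand), the sole enzyme known for the first methyl group on H4K20, had 7.32, 7.30 and 7.31 log2 CPM in CTL and 7.05, 7.08 and 7.02 in SAM. Its adenine dishes stood at 7.14, 7.15 and 7.18 log2 CPM and its DZ dishes at 7.40, 7.48 and 7.48. Both SAM and adenine dishes lay below all CTL dishes and DZ dishes lay above them. It fell 1.19-fold under SAM (log2 fold change -0.26, standard error 0.029, adjusted p = 8.6e-07, limma) and 1.11-fold under adenine (log2 fold change -0.15, adjusted p = 0.000248, limma), and rose 1.11-fold under DZ (log2 fold change 0.14, adjusted p = 0.000629, limma). With plain read totals the log2 fold change under adenine was -0.09 and was no longer called (adjusted p = 0.0112, limma). Its transcript matched 7 other loci at 81.5% to 94.3% identity, among them the processed pseudogenes Gm8770 (chromosome X, 77829307 to 77832003) and Gm11424 (chromosome 11, 82861978 to 82864364). None of these loci overlaps a gene of the table, and how the counting treated reads that match several places was not given in the sources used here.

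Kmt5b (chromosome 19, 3817362 to 3868322, plus strand), which encodes SUV420H1, was the one member called lower under every treatment. Its dishes stood at 6.35, 6.39 and 6.29 log2 CPM in CTL and at 5.54, 5.58 and 5.48 in SAM. They were at 5.96, 5.99 and 5.93 log2 CPM in adenine and at 6.10, 6.08 and 5.97 in DZ. No treated dish reached the lowest CTL dish, and the adenine and DZ dishes overlapped each other. The gene fell 1.76-fold under SAM (log2 fold change -0.81, standard error 0.042, adjusted p = 6.35e-11, limma), 1.30-fold under adenine (log2 fold change -0.38, adjusted p = 7.52e-07, limma) and 1.23-fold under DZ (log2 fold change -0.29, adjusted p = 2.72e-05, limma).

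Kmt5c (chromosome 7, 4743085 to 4750515, plus strand), which encodes SUV420H2, an enzyme of trimethylated H4K20 in heterochromatin, was called under every treatment but not in one direction. It stood at 4.71, 4.56 and 4.62 log2 CPM in CTL, at 5.78, 5.81 and 5.79 in SAM, at 5.24, 5.12 and 5.18 in adenine and at 3.98, 4.18 and 4.20 in DZ. The 4 groups did not overlap, with DZ below CTL and adenine and SAM above it. The gene rose 2.24-fold under SAM (log2 fold change 1.16, standard error 0.059, adjusted p = 5.64e-11, limma) and 1.46-fold under adenine (log2 fold change 0.55, adjusted p = 6.95e-07, limma), and fell 1.43-fold under DZ (log2 fold change -0.51, adjusted p = 3.39e-06, limma). Under DZ, 7.12% of all genes had a lower log2 fold change.

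As Kmt5b fell and Kmt5c rose under SAM, their ratio within a library moved more than that of any other pair examined. Kmt5c stood at 0.805 ± 0.0569 times the level of Kmt5b per kilobase in CTL (SD, n = 3), with 0.848, 0.741 and 0.828 in the single dishes. It stood at 3.12, 3.10 and 3.28 times in SAM, at 1.60, 1.43 and 1.56 times in adenine and at 0.607, 0.704 and 0.769 times in DZ. SAM and adenine dishes were separate from CTL and from each other, whereas the highest DZ dish lay above the lowest CTL dish. The ratio was 3.93 times that of CTL under SAM and 1.90 times under adenine (exact two-sided permutation p = 0.1 each, adjusted p = 0.2), and 0.859 times under DZ (exact permutation p = 0.2, adjusted p = 0.343).

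In shares, Kmt5c made up 44.6% ± 1.77 of the summed level of both genes in CTL (SD, n = 3), 40.9% ± 2.88 in DZ, 60.5% ± 1.38 in adenine and 76.0% ± 0.566 in SAM. These shares rest on canonical transcript lengths of 2278 bases for Kmt5c and 5996 for Kmt5b. Without division by length, Kmt5c stood at 24.8 CPM and Kmt5b at 81.2 in CTL, and at 55.6 and 46.3 in SAM. The sum itself was 24.4 ± 0.609 CPM per kilobase in CTL, 18.7 ± 0.468 in DZ, 26.3 ± 0.591 in adenine and 32.1 ± 0.441 in SAM. Summed over all 3 H4K20 genes the levels were closer together, at 81.6 ± 0.816 CPM per kilobase in CTL, 81.9 ± 2.28 in DZ, 77.7 ± 0.633 in adenine and 79.9 ± 1.43 in SAM. The 6 H3K9 genes summed to 111 ± 0.69 CPM per kilobase in CTL, 117 ± 1.51 in DZ, 127 ± 0.479 in adenine and 155 ± 3.81 in SAM.

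SAM and adenine were given at the same dose for the same time, and this pair of treatments was compared directly, whereas DZ was given at another dose and its values are only set beside theirs. SAM and adenine differed in 8 of the 9 genes (6 higher and 2 lower in SAM), where 42.7% of all genes were called (20.8% higher and 22.0% lower). Their dishes did not overlap for 8 of the 9, as for 61.3% of all genes. The largest difference was that of Kmt5c, 1.54-fold higher in SAM (log2 difference 0.62, 95% interval 0.49 to 0.75, adjusted p = 5.72e-07, limma), and 2.4% of all genes had a higher one. Suv39h1 was 1.40-fold higher in SAM (log2 difference 0.49, 95% interval 0.40 to 0.57, adjusted p = 1.07e-07, limma) and Suv39h2 1.29-fold higher (0.36, 95% interval 0.20 to 0.52, adjusted p = 0.000806, limma).

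Ehmt2 and Setdb1 were also higher in SAM than in adenine, with log2 differences of 0.28 (95% interval 0.22 to 0.33) and 0.22 (95% interval 0.15 to 0.28). Kmt5b was 1.35-fold lower in SAM (log2 difference -0.43, 95% interval -0.52 to -0.34, adjusted p = 6.61e-07, limma). The calls for Ehmt1 (log2 difference 0.15, 95% interval 0.064 to 0.24, adjusted p = 0.00583, limma) and Kmt5a (-0.10, 95% interval -0.17 to -0.043, adjusted p = 0.00675, limma) were the weakest. Each was lost without any one adenine replicate, without SAM replicate 1, and, for Ehmt1, without SAM replicate 2 or, for Kmt5a, without SAM replicate 3, with log2 differences of 0.12 to 0.16 for Ehmt1 and -0.11 to -0.09 for Kmt5a and adjusted p of 0.0122 to 0.0334 (limma). With plain read totals the log2 difference of Kmt5a was -0.045 and was not called (adjusted p = 0.2, limma). The Kmt5a call was also lost with median centring and quantile normalization (adjusted p of 0.0133 and 0.0331, limma). Without a variance trend or with a separate model per comparison, the calls of Kmt5a (adjusted p of 0.0177 and 0.0197, limma) and Ehmt1 (0.0156 and 0.0143, limma) were both lost. Setdb2 was not called (log2 difference -0.042, 95% interval -0.18 to 0.095).

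The genes whose pattern was most like that of a member were found by the root mean square difference of centred log2 values over the 12 libraries, for the 3 members whose group means spanned at least 1 log2 unit. Nearest to Suv39h1 were Ell2, an elongation factor gene, at 0.0693, Aaas, a nuclear pore gene, at 0.0714, and Cenpk, a centromere gene, at 0.0714. Nearest to Suv39h2 were Tpx2, a spindle assembly factor gene, at 0.0837, Prdx4, a peroxiredoxin gene, at 0.0885, and Rrm1, a subunit of ribonucleotide reductase, at 0.0885. Nearest to Kmt5c were the receptor gene Notch3 at 0.11, the scaffold gene Mpp2 at 0.115 and the chromatin protein gene Hmgb3 at 0.118. Between Suv39h1 and Suv39h2 the difference was 0.243, and between Suv39h1 and Kmt5c it was 0.233. This is a description, as the libraries share their treatments.

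Genes of the cell cycle were measured beside the methyltransferases. Of 26 cell cycle genes, 25 rose under SAM and 25 under adenine, while Mcm2, a replicative helicase subunit, fell under both (log2 fold changes of -0.13 and -0.11). Under DZ 14 rose, and Mcm7, another helicase subunit, fell (log2 fold change -0.11), but without DZ replicate 2 this count was 7 rises and 2 falls. The median log2 fold change was 1.84 for SAM, 1.46 for adenine and 0.21 for DZ. Called shares were 100%, 100% and 57.7%, against 69.3%, 61.6% and 45.9% of all genes, and no difference was tested. The SUV39H pair, Setdb1 and Kmt5c were also called higher under SAM and adenine, whereas Kmt5a and Kmt5b were called lower under both. Under DZ Suv39h2 was called higher, Suv39h1 and Setdb1 were not called and Kmt5c fell. The summed level of the 26 cell cycle genes was 1226 to 1268 CPM in CTL, 1281 to 1445 in DZ, 2894 to 2996 in adenine and 3558 to 3629 in SAM. Cdc6, which licenses replication origins, rose by 2.80 under SAM, 2.06 under adenine and 0.46 under DZ on the log2 scale (the DZ call was lost without CTL replicate 2 or DZ replicate 2, at 0.43 and 0.30), and Aurkb, a mitotic kinase gene, rose by 2.71, 1.89 and 0.36. Bub1, a spindle checkpoint kinase gene, rose by 2.41 under SAM and by 1.81 under adenine. The part of these genes, and of the marker genes above, in the changes of the methyltransferases was not tested, and in bulk RNA fewer cells of a kind and less RNA per cell cannot be told apart.

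**Figure D4:**
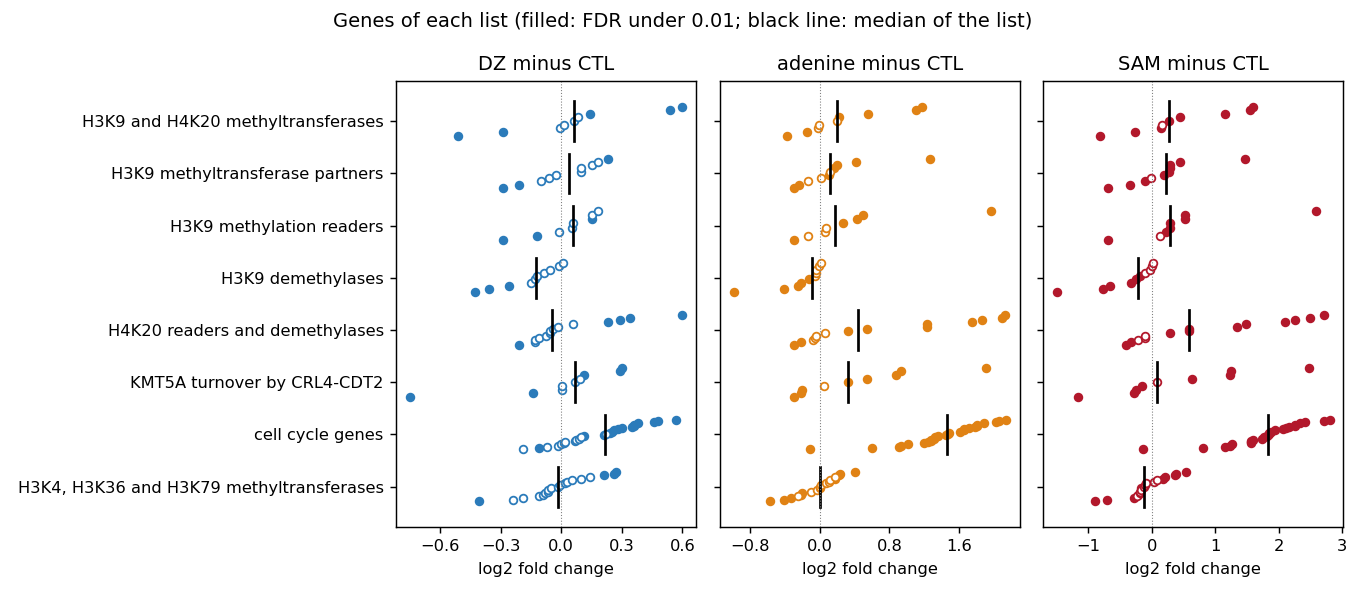
Log2 fold change against CTL (x axis) of every gene in the 9 methyltransferases and 7 other lists (rows) for DZ, adenine and SAM, where filled points are genes called at an FDR under 0.01, black lines are list medians and the x axes differ between panels. The medians of the cell cycle genes are 0.21, 1.46 and 1.84, against 0.062, 0.2 and 0.27 for the methyltransferases.

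Of 11 genes for partners of the H3K9 enzymes, 10 were in the table (not Atf7ip2). Under SAM 6 rose and 3 fell (Cdyl, Tasor and Wiz), under adenine 5 rose (Chaf1a, Morc2a, Pphln1, Atf7ip and Trim28) and 2 fell (Cdyl and Wiz), and under DZ 1 rose (Morc2a) and 2 fell (Atf7ip and Trim28). Limma thus called 90% of these partner genes under SAM, 70% under adenine and 30% under DZ. Of all genes, 69.3%, 61.6% and 45.9% were called, and no difference was tested. Chaf1a, a subunit of the histone chaperone of replication forks, rose by 1.47 under SAM and 1.27 under adenine on the log2 scale. Cdyl, a chromodomain protein that binds the EHMT enzymes, had log2 fold changes of -0.69 under SAM and -0.29 under adenine. Trim28, the corepressor that recruits SETDB1, rose by 0.27 under SAM and 0.11 under adenine and fell by 0.21 under DZ, and Atf7ip, which stabilizes SETDB1, rose by 0.29 and 0.17 and fell by 0.29 under DZ.

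All 8 genes of H3K9 methylation readers were listed. Under SAM 6 rose and Cdyl fell, under adenine 4 rose (Uhrf1, Cbx5, Cbx3 and Cbx1) and Cdyl fell, and under DZ Uhrf1 rose while Cbx3 and Cbx5 fell. Without CTL replicate 1 or 3 this DZ count of 3 was 1. Called shares were 87.5% for SAM, 62.5% for adenine and 37.5% for DZ, against 69.3%, 61.6% and 45.9% of all genes, and no difference was tested. The call of Uhrf1 under DZ was lost without any one CTL replicate or DZ replicate 2 or 3 (log2 fold changes of 0.11 to 0.16, adjusted p of 0.0114 to 0.039, limma), and that of Cbx3 without any one CTL replicate or DZ replicate 1 or 3 (-0.13 to -0.088, adjusted p of 0.0136 to 0.0478, limma). Uhrf1, which couples H3K9 methylation to the copying of DNA methylation, rose by 2.59 under SAM, 1.97 under adenine and 0.15 under DZ on the log2 scale. The heterochromatin protein gene Cbx5 rose by 0.53 under SAM and 0.50 under adenine and fell by 0.29 under DZ.

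Of 11 genes for enzymes that remove H3K9 methylation, 10 were in the table (not Kdm4d). Of these 6 fell under SAM, 5 under adenine (Kdm7a, Kdm4c, Kdm4a, Phf8 and Kdm1a) and 3 under DZ (Kdm7a, Kdm3a and Jmjd1c), and no rise was called by limma in these comparisons. The called shares of 60%, 50% and 30% lie below the 69.3%, 61.6% and 45.9% of all genes, of which 35.7%, 31.0% and 23.4% were called lower, and no difference from all genes was tested. Without CTL replicate 2 the count under adenine was 3. Kdm7a, a demethylase of H3K9 and H3K27, had log2 fold changes of -1.49, -0.99 and -0.43 under SAM, adenine and DZ. Kdm4a, which removes trimethylated H3K9 and H3K36, had -0.77 under SAM and -0.25 under adenine, and its relative Kdm4c had -0.65 and -0.41. The list medians were -0.22 for SAM, -0.088 for adenine and -0.12 for DZ.

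On the H4K20 side, 14 of 15 genes of readers and demethylases were in the table (not L3mbtl1). Of these 9 rose and 2 fell (Rsbn1 and Phf8) under SAM, 8 rose and the same genes fell under adenine, and 4 rose (Orc1, Bard1, Ncapg2 and L3mbtl2) and Rsbn1 fell under DZ. The DZ count of 5 was 3 without CTL replicate 2 or 3 and 2 without DZ replicate 2 or 3. The medians were 0.58, 0.44 and -0.048. Called shares were 78.6% for SAM, 71.4% for adenine and 35.7% for DZ, against 69.3%, 61.6% and 45.9% of all genes, and no difference was tested. Tonsl, which binds the unmethylated H4K20 of newly made chromatin, rose by 2.71 under SAM and 2.09 under adenine on the log2 scale, and Bard1, a DNA repair protein that also reads it, rose by 2.49, 2.13 and, under DZ, 0.34. Its DZ call was lost without CTL replicate 2 or DZ replicate 2 or 3 (log2 fold changes of 0.28, 0.24 and 0.34, adjusted p of 0.0118 to 0.0268, limma). Orc1, an origin recognition subunit that reads dimethylated H4K20, rose by 2.26, 1.75 and 0.60.

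KMT5A protein is destroyed during S phase by the ubiquitin ligase CRL4-CDT2, and 9 of 9 genes listed around this turnover were in the table. The list is broader than the ligase, as it also holds Skp2 and other targets such as Cdkn1a. Its counts therefore do not measure the turnover of KMT5A. Under SAM 4 rose (Dtl, Skp2, Pcna and Cdt1) and 4 fell (Cdkn1a, Cul4b, Cul4a and Ddb1). Under adenine 5 rose, the same genes and Cdkn1a, and Cul4a, Cul4b and Ddb1 fell, and under DZ Cdt1, Dtl and Rbx1 rose and Cdkn1a and Cul4a fell. The DZ count of 5 was 3 (1 rise and 2 falls) without CTL replicate 1 or DZ replicate 2, and Dtl was not called in either case (log2 fold changes of 0.26 and 0.21, adjusted p of 0.0115 and 0.0118, limma). Called shares were 88.9% for SAM, 88.9% for adenine and 55.6% for DZ, against 69.3%, 61.6% and 45.9% of all genes, and no difference was tested. Dtl, which encodes CDT2 itself, rose by 2.48 under SAM, 1.91 under adenine and 0.29 under DZ on the log2 scale. Pcna, the sliding clamp on which the ligase acts, rose by 1.23 under SAM and 0.93 under adenine. Cdkn1a, another target of the ligase, fell by 1.16 under SAM and by 0.75 under DZ and rose by 0.54 under adenine.

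Methyltransferases of H3K4, H3K36 and H3K79 were set beside the 9 members, and all 19 were listed. Under SAM 5 rose (Dot1l, Setd1a, Nsd2, Setd7 and Setd3) and 5 fell (Smyd3, Kmt2c, Smyd2, Ash1l and Kmt2e), or 52.6%. Under adenine 4 rose (Nsd2, Setd7, Dot1l and Setd3) and 5 fell (Smyd3, Kmt2d, Kmt2c, Nsd1 and Kmt2e), or 47.4%, and under DZ 3 rose (Smyd5, Dot1l and Smyd2) and Kmt2e fell, or 21.1%. These shares lie below the 69.3%, 61.6% and 45.9% of all genes. Their median log2 fold changes were -0.12, 0.0088 and -0.016. The most changed was Smyd3, a SET and MYND domain enzyme, with -0.89 under SAM and -0.57 under adenine, while Dot1l, the H3K79 methyltransferase, rose by 0.54, 0.22 and, under DZ, 0.26. No difference between these genes and the 9 members was tested. Of 20 germline genes known to be silenced by H3K9 methylation, none was among the genes of the table, and they were not analysed here. Only genes with a CPM of 1 in every library, CTL included, were kept. Their absence therefore cannot show whether they stayed silent under a treatment.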

How the data were processed

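RNA was sequenced from 12 libraries of 4 groups, with 3 replicate dishes per group, and samples were grouped by the treatment in their labels. The authors trimmed reads with Trimmomatic, aligned them to GRCm39 with HISAT2 guided by GENCODE vM27, quantified transcripts with StringTie and kept genes that reached a CPM of 1 in every library. What the authors deposited is 1 table of log2 CPM, made with their edgeR step, for 12591 genes. All its 12 columns were used. Tool versions and the method of the library scaling factors are not given in the sources used here. Since the values are already normalized logarithms, they were tested without further scaling.

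Solving for whole reads gave back the counts behind the log2 values (100% within 0.01 of a whole number), which gave the depth. They are coverage-based estimates of StringTie. Intervals cover the spread between dishes. Genes were tested with limma 3.58.1 in R 4.3.3 (lmFit, contrasts, eBayes with a variance trend) and Benjamini-Hochberg adjustment over all genes, at an FDR of 0.01. Simulated data had 200 of 12591 genes per treatment changed by 1 log2 unit up or down, with the same dispersion setting for every gene. There limma recovered 100% in each treatment, and 0.498% to 1.48% of its calls were false. Smaller changes, and data in which most genes move, were not simulated, so these rates do not extend to them. Ratios were tested by exact permutation. Members and lists were chosen with earlier results of these data known. Named are all 9 members, at most 3 called genes per list, those of largest absolute log2 fold change, the genes behind counts of 5 or fewer, and the 3 genes most like each member that spanned at least 1 log2 unit. Trim28, Atf7ip, Cbx5, Fn1, Mcm2, Mcm7, Cdkn1a and the overlapping genes are named beside these for a count or a position, after their values were seen. Annotation came from GENCODE vM39, which matched 12575 of the 12591 identifiers, with transcript copies found by minimap2 2.31-r1302. Python 3.11.15 with numpy 2.4.6, pandas 2.3.3, pysam 0.24.0 and matplotlib 3.10.9 was used for tables and plots. The alternatives changed the scaling, the filter on low values, the model, the threshold or the libraries.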

Additional observations from a re-analysis of the deposited data

How the results depend on the processing

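Called changes of the members kept their direction in all 513 values recomputed under the alternatives, of which 467 stayed past the threshold and 46 did not. Alternatives that altered only the variance model, the filter, the block or the threshold left the log2 fold change as it was. Direction could not change in those, and an FDR of 0.05 cannot lose a call, so both tallies hold values fixed in advance. Of the values that were not called, 9 passed the threshold under an alternative, which was an FDR of 0.05, plain read totals or a fit without a variance trend. An FDR of 0.05 is itself a looser threshold. With a required log2 fold change of 0.5 (limma's treat), the count of the 9 members called went from 5 to 0 for DZ, from 6 to 2 for adenine, from 8 to 4 for SAM and from 8 to 0 for SAM against adenine. Under treat the DZ counts of the other lists were also 0, as for the cell cycle genes (15 without it). For SAM, the count went from 11 to 6 for the H4K20 readers and demethylases and from 10 to 1 for the H3K4, H3K36 and H3K79 enzymes. The share of all genes called under treat is not given here. No other alternative (no variance trend, robust empirical Bayes, 2 filters on low values, median centring, quantile normalization, plain read totals, voom on recovered reads, a pseudocount of 1 CPM, an FDR of 0.05, a separate model per comparison) moved a count by over 1.5 times. Without 1 library at a time the counts were 5 to 5, 6 to 6, 7 to 8 and 6 to 7. The replicate numbers do not pair the dishes (Pearson r across genes of same-numbered deviations -0.142 to 0.181, with 15 of 36 best matches to the own number), and with a replicate block the counts were 5, 6, 8 and 8.

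Uncalled values near 0 changed sign. Suv39h1 under DZ was -0.004 with median centring, -0.0075 with quantile normalization and -0.0057 to 0.036 without 1 library. Ehmt1 under DZ was 0.017 with plain read totals and -0.027 to 0.024 without 1 library, and under adenine 0.044 and -0.036 to 0.015. Ehmt2 under adenine was 0.053 with plain read totals, 0.062 with quantile normalization and -0.016 to 0.0031 without 1 library. Setdb2 was 0.018 for SAM against adenine with plain read totals, and Cd68 under DZ was -0.23 to 0.0078 without 1 library. Among the other gene lists, the DZ counts that moved by over 1.5 times besides under treat were those of H3K9 readers (3 to 1 without a variance trend, with voom or with separate models), H3K9 demethylases (3 to 5 at an FDR of 0.05), H3K9 partners (3 to 5 with plain read totals or an FDR of 0.05) and the H3K4, H3K36 and H3K79 enzymes (4 to 7 with separate models or an FDR of 0.05), besides those given above for single libraries. The adenine count of H3K9 demethylases was 3 in place of 5 with plain read totals. With plain read totals 5462 genes were higher and 3462 lower under SAM, against 4237 and 4494. The cause was not tested. Suv39h2 and Setdb2, with the fewest reads, had the largest standard errors.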
